A study of Homo sapiens with 6 samples.

Results

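The 6 genes described here act at the start of DNA replication or watch over its progress: MCM5, E2F1, TIMELESS, TONSL, SKP2 and CHEK2. They were chosen by gene name, and each name matched 1 row of the 2885 genes in the deposited table. All 6 had lower normalized counts in the libraries labelled shKMT5A, at 31.3% to 46.0% of the mean of the libraries labelled shNC. TIMELESS, TONSL, SKP2 and CHEK2 lay within a narrow band of 44.6% to 46.0%, whereas E2F1 was at 36.2% and MCM5 at 31.3%. That grouping was made after the values were seen, and no pair of the 6 genes passed a test of their ratio.

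Before a cell copies its DNA it loads the ring-shaped MCM helicase onto replication origins, a step called licensing. E2F transcription factors, held back by RB proteins until cyclin-dependent kinases release them, switch on many genes needed for this step and for S phase, the period of DNA synthesis. Once forks move, a protection complex travels with them and checkpoint kinases slow the cycle when DNA is damaged. KMT5A is the enzyme that adds the first methyl group to histone H4 at lysine 20, and its protein is known to be removed by ubiquitin ligases during S phase.

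The samples were RKO cells, an established human colorectal carcinoma line, profiled by RNA sequencing of total RNA. Of the 6 libraries, 3 were labelled with a short hairpin RNA against KMT5A (shKMT5A, genotype given as KMT5A knockdown) and 3 with the control hairpin ShNC (genotype given as wild type), written shNC below. No time after introduction of the hairpin and no hairpin sequence are given in the labels, nor do they say whether replicates were grown separately. The p-values below therefore cover no more than library-to-library spread, which may be technical. Reads assigned to the genes of the table numbered 1891460 and 1906015 in shKMT5A replicates 1 and 2 and 1363382 to 1369655 in the 3 libraries labelled shNC; the total depth is unknown.

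The gene named by the hairpin goes against the label. KMT5A had 4015, 3898 and 3297 normalized counts in the libraries labelled shKMT5A, against 1298, 1245 and 1307 in those labelled shNC, 2.91-fold higher in the libraries labelled shKMT5A without overlap (log2 fold change 1.54 ± 0.075, SE; limma, adjusted p = 1e-08; 0.59 with DESeq2 on the reads of 5 libraries). All directions below are therefore those of the labels, and no result below describes cells shown to have less KMT5A transcript. In total RNA of a whole culture, fewer cells in S phase and less of each transcript per cell cannot be told apart. Of 11 markers of colon epithelium 5 were in the table, KRT8, KRT18 and KRT19 lower and CDH17 and MUC2 higher, with a summed level of 45692 to 47212 normalized counts in the libraries labelled shKMT5A and 144309.6 to 157141 in those labelled shNC, where CDH17 was at 0. Of 8 leukocyte markers 4 were in the table, CD8A higher and CORO1A, GZMB and CD79A lower, summing to 114 to 139 normalized counts in the libraries labelled shKMT5A and 489 to 548 in those labelled shNC. Nearly all of that sum was CORO1A, which averaged 105 normalized counts in the libraries labelled shKMT5A and 489.8 in those labelled shNC. The table held 5 of 7 markers of fibroblasts and endothelium, 3 higher (COL3A1, ACTA2 and CDH5) and 2 lower (LUM and DCN), summing to 94.2 to 118 normalized counts in the libraries labelled shKMT5A and 147 to 167 in those labelled shNC, where CDH5 was at 0. Most of the sum in the libraries labelled shNC was LUM, which averaged 0.341 normalized counts in the libraries labelled shKMT5A and 111 in those labelled shNC. The part of these shifts in the results below was not tested.

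The table had been selected before deposit: in the authors' deposited table no gene had a log2 fold change smaller in size than 1.0002 or an adjusted p above 0.0499. A gene could thus appear only with a difference of that size, and genes with smaller differences were not analysed here. In the fit used here, limma on log2(normalized count + 1) with Benjamini-Hochberg adjustment over all 2885 genes, 99.9% of the table passed an adjusted p of 0.05, 42.6% as lower and 57.4% as higher. That was 1228 lower and 1655 higher genes. With DESeq2 scaling the reads of 5 libraries over the table it was 1229 lower and 786 higher. That scaling was estimated from the selected genes alone, with no genes of small difference among them. All 6 genes passed as lower. None of the 6 overlapped between the groups, as was the case for 99.7% of the table, 42.5% with every library labelled shKMT5A lower and 57.2% with every one higher. These counts follow from the selection of the table and from the choice of the genes, and what can be described is the sizes of the differences and how they compare with each other.

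The control region of E2F1 is shown because, of the 4 genes with a sequence, it is the one whose start region held matches to the E2F recognition sequence, and that of TIMELESS is shown for comparison. Sequences are from RefSeq (GRCh38.p14), both read on the minus strand, 5′ to 3′, at chr20:33686398-33686505 and chr12:56449427-56449501. Bases are counted back from the RefSeq transcription start, from -120 to -13 for E2F1 and from -75 to -1 for TIMELESS. Capitals mark matches to the E2F words TTTCCCGC, TTTCGCGC, TTTGCCGC and TTTGGCGC or to the word CCAAT, which binds the factor NF-Y, on either strand.
E2F1: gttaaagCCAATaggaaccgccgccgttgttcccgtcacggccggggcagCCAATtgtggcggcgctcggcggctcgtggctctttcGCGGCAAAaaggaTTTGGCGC
TIMELESS: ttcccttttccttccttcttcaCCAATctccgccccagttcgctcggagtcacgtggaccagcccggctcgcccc

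E2F1 held 2 E2F words, TTTGCCGC on the opposite strand at -33 to -26 and TTTGGCGC at -20 to -13, which do not overlap each other or the CCAAT words at -113 to -109 and -70 to -66. A further CCAAT word, on the opposite strand at -179 to -175, lies outside the stretch shown. The E2F1 gene as annotated for counting extends to 33686404, so most of the E2F word at -20 to -13 lies inside it. TIMELESS held no E2F word and 1 CCAAT word, at -53 to -49. In windows of 300 bases, from 250 before to 50 after the start, CHEK2 held 3 CCAAT words, all on the opposite strand, and no E2F word, and SKP2 held neither. MCM5 and TONSL had no match in the table of windows. An E2F word was thus found in 1 of 4 genes with a window and CCAAT in 3 of 4, against 3.31% and 34.6% of the 35116 windows in the table. Of 10 further genes of the replication and cell cycle lists described below, GINS2, HLTF, LIG1, POLE2, TYMS and UHRF1 held an E2F word, 6 in all, and CCNE1, CDKN2C, DCTPP1 and RFC4 did not. CCAAT was found in 4 of these 10, or 40.0%. A gene counted if any of its windows held the word, so shares of genes and shares of single windows are not like measures. These matches describe letters in a window and say nothing of binding.

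MCM5 is a subunit of the ring that is loaded at origins and later drives unwinding at the fork. Its gene (ENSG00000100297) lies on chromosome 22 from 35400063 to 35425430 on the plus strand (GRCh38, as for all positions below). MCM5 had 799.9, 771 and 857 normalized counts in the libraries labelled shKMT5A, against 2513, 2593 and 2641 in those labelled shNC. Every library labelled shKMT5A was below every one labelled shNC, and the nearest libraries of the groups still differed 2.93-fold. The log2 fold change was -1.67 ± 0.061 (SE), with a 95% interval of -1.81 to -1.54 (limma, adjusted p = 1.16e-09).

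E2F1 is the transcription factor that drives entry into S phase, and its own gene is a known E2F target. It lies on chromosome 20 from 33675683 to 33686404 on the minus strand (ENSG00000101412). E2F1 had 305, 309 and 262 normalized counts in the libraries labelled shKMT5A, against 764, 818 and 839 in those labelled shNC. The groups did not overlap, and shKMT5A replicate 3 was the lowest of its group, where MCM5 had been at its highest. The log2 fold change was -1.47 ± 0.087 (SE; limma, adjusted p = 4.28e-08).

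TIMELESS, with its partner TIPIN, stabilizes moving forks and passes the stalled-fork signal to the checkpoint. Its gene lies on chromosome 12 from 56416373 to 56449403 on the minus strand (ENSG00000111602). TIMELESS had 1140.2, 1116 and 1125 normalized counts in the libraries labelled shKMT5A, against 2415, 2449 and 2508 in those labelled shNC. These were the tightest values of the 6 genes: the coefficient of variation was 1.10% in the libraries labelled shKMT5A, below the 3.03% that counting alone gives at 1089 reads, and 1.93% in those labelled shNC. The log2 fold change was -1.12 ± 0.053 (SE; limma, adjusted p = 7.25e-09).

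TONSL, with MMS22L, repairs broken forks and binds newly made histone H4 that lacks the methyl mark placed by KMT5A. Its gene lies on chromosome 8 from 144428775 to 144444444 on the minus strand (ENSG00000160949). TONSL had 946, 809.7 and 919 normalized counts in the libraries labelled shKMT5A, against 1850.1, 2111 and 2039 in those labelled shNC. All libraries labelled shKMT5A lay below those labelled shNC, with the nearest pair 1.95-fold apart. The log2 fold change was -1.17 ± 0.078 (SE; limma, adjusted p = 1.04e-07). The antisense gene TONSL-AS1 overlaps 2297 bases of TONSL, and without known strand in the counting its reads cannot be told apart from those of TONSL there.

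SKP2 is the substrate-binding part of a ubiquitin ligase that removes the inhibitor p27 and other proteins at the entry to S phase. Its gene lies on chromosome 5 from 36151989 to 36184319 on the plus strand (ENSG00000145604). SKP2 had 738, 653 and 695 normalized counts in the libraries labelled shKMT5A, against 1631, 1537 and 1481 in those labelled shNC. The 2 groups were apart by at least 2.01-fold between their nearest libraries. The log2 fold change was -1.16 ± 0.070 (SE; limma, adjusted p = 4.84e-08).

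CHEK2 is the checkpoint kinase that ATM activates after DNA breaks. Its gene lies on chromosome 22 from 28687743 to 28742422 on the minus strand (ENSG00000183765). CHEK2 had 186, 211 and 202 normalized counts in the libraries labelled shKMT5A, against 501, 417 and 385 in those labelled shNC. It had the lowest counts of the 6 genes, and shNC replicate 1 stood above the other two of its group. The coefficient of variation in the libraries labelled shKMT5A was 6.20%, below those of E2F1 (8.85%) and TONSL (8.11%), and that in the libraries labelled shNC was 13.8%, the highest of the 6, against 4.36% to 5.05% from counting at 392 to 526 reads. The log2 fold change was -1.11 ± 0.11 (SE; limma, adjusted p = 3.09e-06), and -1.003 without shNC replicate 1 (adjusted p = 3.01e-05).

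The CHEK2 gene has near-identical pseudogene copies and shares 392 bases at its start with HSCB on the opposite strand, so its value is less certain than the others. One copy, CHEK2P2, was in the table with 0 in all 3 libraries labelled shKMT5A and 4.76, 7.70 and 1.97 normalized counts in those labelled shNC. Those levels were far under those of CHEK2 in every library.

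**Figure D1:**
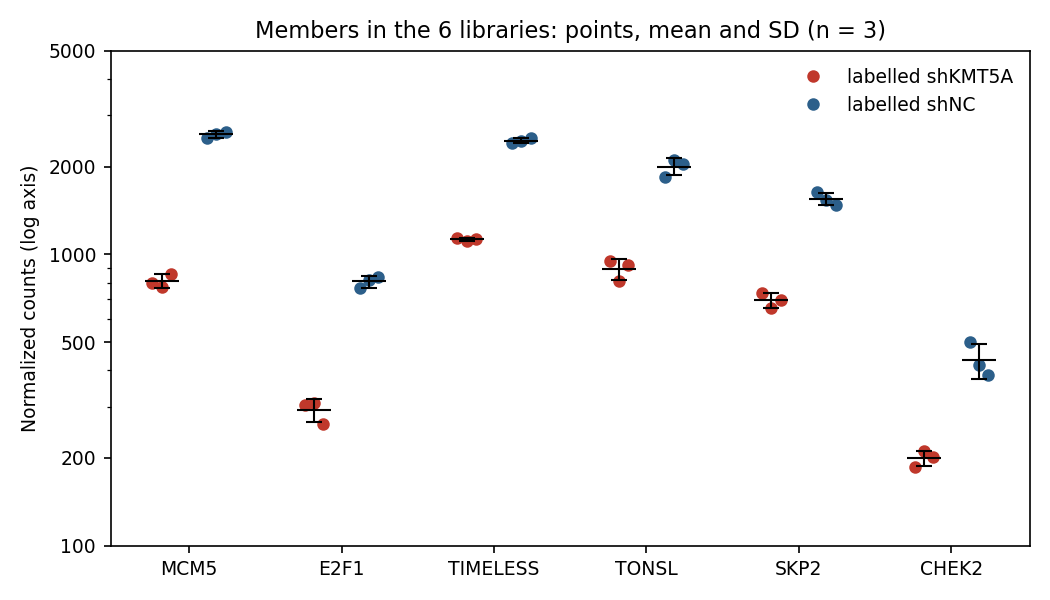
Normalized counts of the 6 genes on a log axis, with red points for the 3 libraries labelled shKMT5A, blue points for the 3 labelled shNC, and black marks for mean and SD. The groups do not overlap for any of the 6 genes, and CHEK2 has the widest spread among the libraries labelled shNC, from 385 to 501.

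The size of the fall was even across 4 of the genes and larger in the other two, a grouping made after the values were seen. The median log2 fold change of the 6 genes was -1.16, with an SD over the genes of 0.23. Scaling libraries over the genes of the table in place of the authors' factors made that median -1.40 to -2.21, since all genes shift together, and left the SD at 0.23. For TIMELESS, TONSL, SKP2 and CHEK2 the values ran from -1.17 to -1.11 with an SD of 0.026. The standard errors of these 4 ranged from 0.053 to 0.11. The 4 were grouped by their values, and the table's log2 fold limit of 1 cut off smaller falls. Their small SD was therefore partly fixed by selection and is no test of an even fall. Taken library by library against the mean of the libraries labelled shNC, the median difference of the 6 genes was -1.16, -1.27 and -1.14 in shKMT5A replicates 1, 2 and 3. The SD of the 6 differences within a library was 0.245, 0.247 and 0.249.

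Ratios of 2 genes within the same library hardly depend on how libraries were scaled. They were taken after adding 1 to each normalized count, which leaves a slight dependence. The mean difference in log2 ratio is the difference between the log2 fold changes of the 2 genes, so it restates the sizes above; what the ratios add is the spread between libraries. The count of MCM5 relative to TIMELESS was 0.702, 0.691 and 0.763 in the libraries labelled shKMT5A, against 1.04, 1.06 and 1.05 in those labelled shNC. The 2 genes thus changed places: MCM5 had the fewer reads in every library labelled shKMT5A and slightly more in every library labelled shNC. The log2 ratio differed by -0.55 ± 0.045 (SE).

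MCM5 was also lower relative to TONSL, SKP2 and CHEK2 in every library labelled shKMT5A, with differences in log2 ratio of -0.51 ± 0.068, -0.52 ± 0.082 and -0.56 ± 0.15 (SE). E2F1 was lower relative to TIMELESS without overlap (-0.34 ± 0.080) and relative to TONSL (-0.30 ± 0.125), whereas the groups overlapped for its ratios to SKP2 (-0.31 ± 0.125) and CHEK2 (-0.36 ± 0.18). For MCM5 over E2F1 the values were 2.62, 2.49 and 3.26 in the libraries labelled shKMT5A, against 3.29, 3.17 and 3.14 in those labelled shNC. There shKMT5A replicate 3 fell among the libraries labelled shNC, so these 2 genes were not separated (-0.21 ± 0.12). Among the 6 pairs of TIMELESS, TONSL, SKP2 and CHEK2, none was free of overlap, and the differences lay between -0.06 and 0.04 with standard errors of up to 0.20.

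Of 15 pairs, 6 did not overlap between the groups. Each of these had p = 0.1 in an exact two-sided permutation test, the smallest that 3 against 3 libraries allow, and p = 0.25 after Benjamini-Hochberg adjustment over the 15 pairs, so no pair passed. Among all pairs of the 254 lower genes with an shNC mean in the range of the 6 genes, 59.5% did not overlap. The share among the 15 pairs, 6 of 15, was below that background. Leaving out a library can only keep or raise the number of pairs without overlap, which was 9 without shNC replicate 1. The background share was not computed with a library left out, so that number has none beside it.

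**Figure D2:**
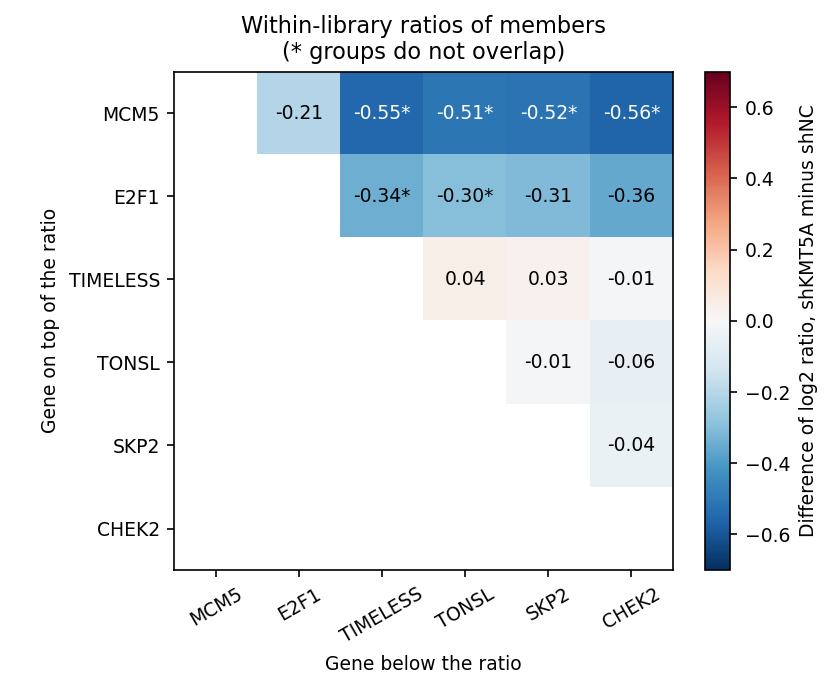
Difference in log2 ratio between the groups, shKMT5A minus shNC, for each pair of genes, with the gene on the left over the gene below; an asterisk marks pairs whose groups do not overlap. The row of MCM5 holds values down to -0.56, and the 6 pairs among TIMELESS, TONSL, SKP2 and CHEK2 hold values between -0.06 and 0.04.

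Set against genes of like level, the falls were ordinary in size. The 254 lower genes with an shNC mean between 434 and 2582 normalized counts had a median log2 fold change of -1.28, with quartiles of -1.56 and -1.12, and 55.1% of them lay within the range spanned by the 6 genes. MCM5 fell further than most of them: 53 of the 254, or 20.9%, had a larger fall. For E2F1 that number was 80. TONSL, SKP2, TIMELESS and CHEK2 were in the shallower part, with 169, 173, 187 and 192 of the 254 genes falling further. The median over all genes of the table was 1.13 and that of all 1228 lower genes -1.66.

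**Figure D3:**
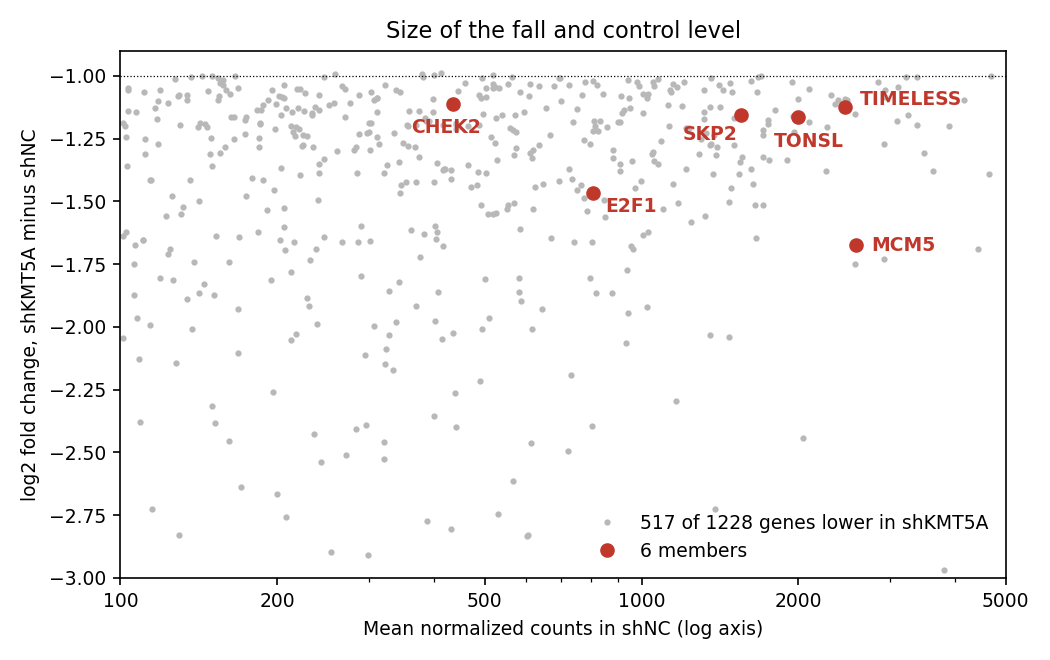
Log2 fold change, shKMT5A minus shNC, against the mean normalized count in the libraries labelled shNC on a log axis, for the 6 genes (red) and 517 of the 1228 lower genes (grey), those with an shNC mean from 100 to 5000 and a fold change within the axis. The dotted line is the authors' fold limit; TIMELESS, TONSL, SKP2 and CHEK2 sit close to it and MCM5 lies below most genes of its level.

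Levels were divided by the deposited gene length, from 2503 bases for E2F1 to 7338 for MCM5. How that length was made is not given, and it need not be that of the transcripts present. The order between genes below therefore depends on it, whereas the change of each gene between groups does not. On that scale, in mean normalized counts per kilobase, the order in the libraries labelled shKMT5A was TIMELESS (194 ± 2.12), SKP2 (181 ± 11.1), TONSL (125 ± 10.2), E2F1 (117 ± 10.3), MCM5 (110.3 ± 6.01) and CHEK2 (44.4 ± 2.76). TIMELESS and SKP2 overlapped there, as did TONSL with E2F1 and E2F1 with MCM5. In the libraries labelled shNC it was TIMELESS (422 ± 8.13), SKP2 (404 ± 19.7), MCM5 (352 ± 8.82), E2F1 (322 ± 15.6), TONSL (281 ± 18.9) and CHEK2 (96.7 ± 13.3; all SD, n = 3). In that group TIMELESS and SKP2 were the only neighbours that overlapped. The mean of MCM5 was below those of TONSL and E2F1 in the libraries labelled shKMT5A, where its range (105 to 117) overlapped both that of TONSL (114 to 133) and that of E2F1 (105 to 124), and above both in those labelled shNC.

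**Figure D4:**
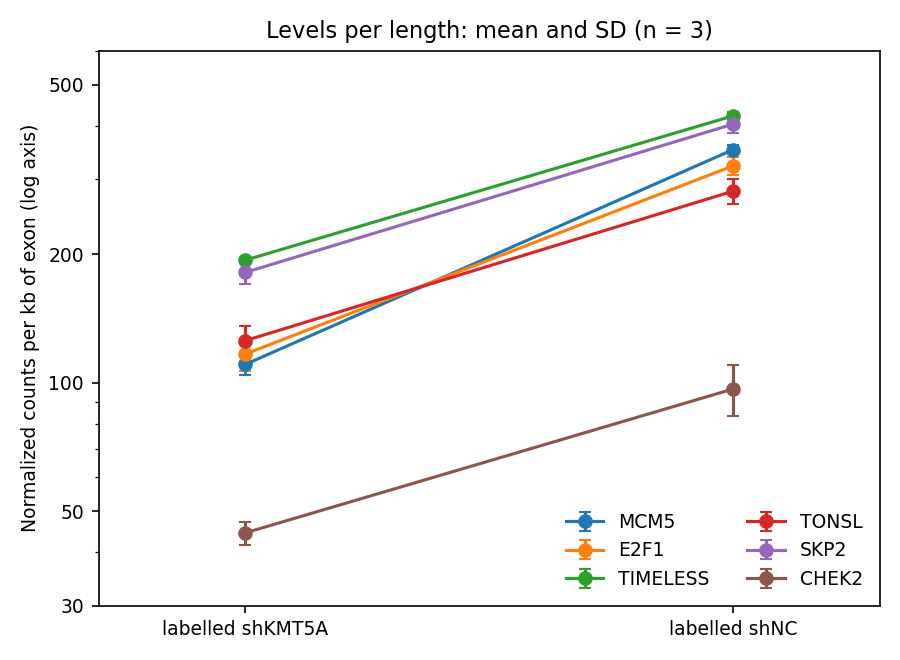
Mean normalized counts per kilobase of the deposited gene length with SD (n = 3) on a log axis, in the libraries labelled shKMT5A (left) and shNC (right). The lines of TIMELESS, SKP2, TONSL and CHEK2 run nearly parallel, while those of MCM5 and E2F1 are steeper and cross that of TONSL. The slopes do not depend on the lengths used, but the crossing does.

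Other genes of the same processes were taken from 9 lists of 191 genes, of which the table held 19, the 6 genes above included. Of the 13 others, 12 were lower in the libraries labelled shKMT5A and 1, MYC, was higher under the authors' scaling. Their log2 fold changes had a median of -1.19, beside 42.6% lower and a median of 1.13 over the table. The 12 lower genes had a median of -1.20 and ran from -2.52 to -0.99. The remaining list genes were not analysed here, so nothing follows for them, and the selection of the table fixes most of the size of these values.

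Among 16 origin licensing genes the table held MCM5 alone. Of 48 genes of origin firing and the replisome it held 7, all lower. GINS2, part of the active helicase, averaged 244 ± 28.5 normalized counts in the libraries labelled shKMT5A and 567 ± 28.0 in those labelled shNC. POLE2, a subunit of the leading-strand polymerase, averaged 122 ± 14.5 in the libraries labelled shKMT5A and 286 ± 20.4 in those labelled shNC. RFC4, of the clamp loader, had a log2 fold change of -1.12, LIG1, which joins Okazaki fragments, -1.19, RECQL4, a helicase of origin firing, -1.09, and UHRF1, which carries DNA methylation through replication, -1.10.

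Nucleotide supply was represented by 2 of 8 genes, both lower: TYMS, which makes thymidylate (-1.22), and DCTPP1, which clears unwanted deoxynucleotides (-1.04). E2F1 was the only one of 13 E2F and RB family genes held by the table, SKP2 the only one of 14 genes of S-phase ubiquitin ligases, and CHEK2 the only one of 22 checkpoint genes. For these lists the values of E2F1, SKP2 and CHEK2 therefore stand without a relative beside them.

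Of 20 G1/S cyclins, kinases and inhibitors 4 were in the table, and they went both ways. CCNE2, a cyclin of S-phase entry, averaged 70.02 ± 6.23 normalized counts in the libraries labelled shKMT5A and 188 ± 3.92 in those labelled shNC (log2 fold change -1.42). CCNE1, its relative, was lower by less (-0.99). CDKN2C, an inhibitor of cyclin D kinases, averaged 90.02 ± 10.3 in the libraries labelled shKMT5A and 286 ± 8.75 in those labelled shNC (-1.66), a fall like that of MCM5 in a gene that restrains the cycle. MYC, a growth-promoting transcription factor, averaged 9496 ± 193 in the libraries labelled shKMT5A and 4724 ± 302 in those labelled shNC (1.01 ± 0.053, SE; limma, adjusted p = 1.59e-08). For MYC the size depended on the setting: its log2 fold change was 0.77 with equal medians over the table, 0.43 with equal totals, 0.41 with TMM factors and 0.53 with edgeR on the reads of 5 libraries, all past an adjusted p of 0.05. With DESeq2 on those reads it was -0.02 and did not pass (adjusted p = 0.849). These scalings were estimated from the selected table, which held no genes of small difference. The median of the whole table moved by -0.24, -0.57, -0.59, -0.56 and -1.02 in these settings, in the same order, about as far as MYC did. The smaller values for MYC thus go with a shift of the whole table. Which scaling is nearer the true one was not tested.

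Of 25 genes of fork repair and homologous recombination the table held TONSL and HLTF. HLTF, a translocase that remodels stalled forks, had 57.6, 42.0 and 68.6 normalized counts in the libraries labelled shKMT5A, against 319.9, 335 and 309 in those labelled shNC. Its log2 fold change of -2.52 ± 0.17 (SE; limma, adjusted p = 1.09e-07) was the deepest of the 19 list genes. The table held 0 of 25 G2/M genes.

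**Figure D5:**
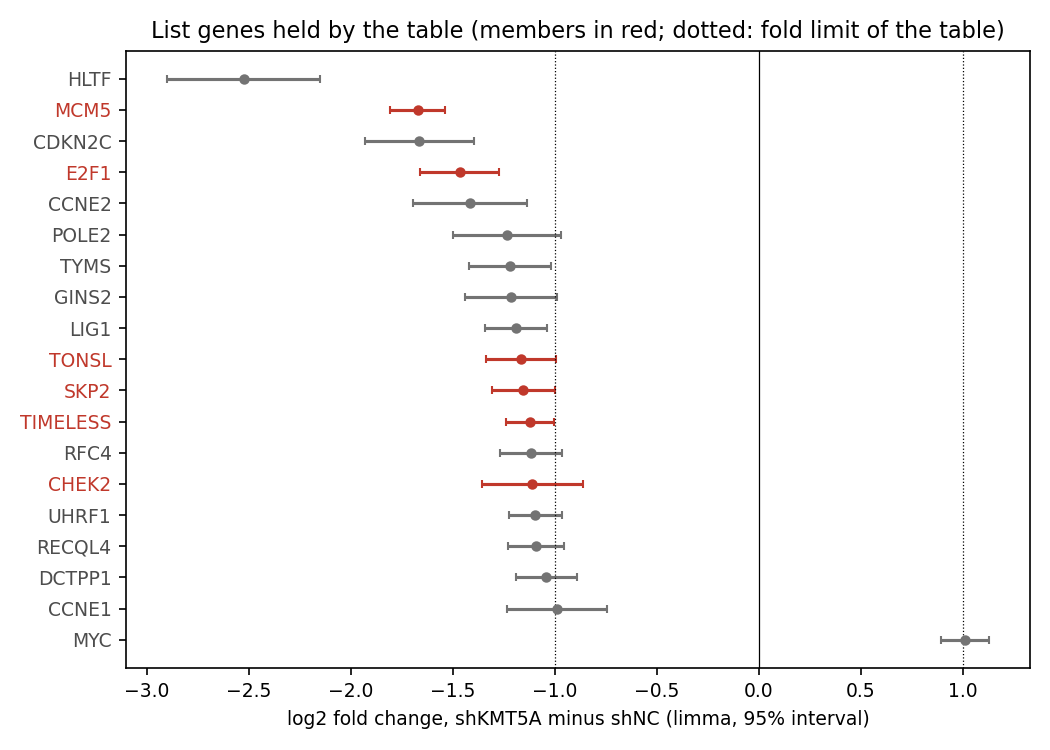
Log2 fold change, shKMT5A minus shNC, with 95% interval (limma) for the 19 list genes held by the table; the 6 genes described here are in red and dotted lines mark the authors' fold limit. Apart from HLTF at -2.52 and MYC at 1.01 (0.41 to 0.77 under other scalings in limma, and -0.02 with DESeq2, where it did not pass), values lie between -1.67 and -0.99.

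The 5 genes of the table whose profile over the 6 libraries was nearest the mean profile of the 6 genes were PRPS2, IFFO2, WDR76, DNAJA4 and ZNF672. Likeness was the root-mean-square distance between centred log2 profiles, over 6 libraries and among the 1247 genes averaging 100 normalized counts or more, and these 5 had distances of 0.023 to 0.042. Their log2 fold changes were -1.25, -1.30, -1.27, -1.28 and -1.34, in that order, beside a mean of -1.28 for the 6 genes. With 2 groups of libraries, a near profile mostly means a like fold. Shared regulation was not tested. PRPS2, a phosphoribosyl pyrophosphate synthetase, had 549, 540.5 and 547 normalized counts in the libraries labelled shKMT5A, against 1334, 1291 and 1278 in those labelled shNC. The 6 genes themselves lay 0.082 (SKP2) to 0.202 (MCM5) from their own mean profile, and from 55 to 342 other genes lay closer to it than they did.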

How the data were processed

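Libraries were prepared with a commercial kit from total RNA isolated by TRIzol, per the labels' protocols. The genome build was GRCh38 (hg38), and the tools DESeq2 1.20.0, featureCounts 1.5.0-p3, HISAT2 2.0.5, fastp and CASAVA 1.8 were used, per the submitters' processing notes. Whether counting used strand is not given in the sources. The deposited signal values behave as reads per gene that the authors scaled by a single factor in each library: within 0.001, 100% of them were whole numbers of steps, and 1 step, or 1 read, was worth 0.952 to 1.047. The deposited log2 fold changes and p-values are the authors' own and were used only to describe the selection of the table. Columns were assigned to samples by treatment and number. Positions of all 6 genes equalled those in GENCODE 29.

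Values were tested with limma 3.58.1 (R 4.3.3, statmod 1.5.0, with trend and robust options) on log2(value + 1), all 6 libraries, genes with a mean of at least 1, no covariate; this scale understates changes of low genes. Ratios of genes were tested by exact permutation (scipy 1.17.1, Python 3.11.15). The fit was tested on simulated counts with known changes in a small part of the genes, raised and lowered in equal number. That test did not cover a table in which nearly all genes differ. Reads were recovered in this way for 5 libraries; shKMT5A replicate 3 was left out of this, since its step of 0.994 cannot be distinguished from 1 by the check used, although its values were whole multiples too. Those reads were tested with edgeR 4.0.16 and DESeq2 1.42.0 as alternatives, with another pseudocount, filter and scaling, a replicate block and leaving out each library. Replicates of a group differed by 2.16 to 4.95 times the variance of counting noise. Named genes were the 6 genes, KMT5A, all list genes in the table and the 5 nearest profiles; CHEK2P2 was added after its values were seen. The genes and lists were chosen with earlier results of these data known. All 191 list symbols matched a gene identifier.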

Additional observations from a re-analysis of the deposited data

How the results depend on the processing

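Each of the 6 genes was lower in the libraries labelled shKMT5A with an adjusted p under 0.05 in every alternative run, in a table the authors had selected on these libraries. Without 1 library the median of their log2 fold changes ranged from -1.20 to -1.13 and their SD from 0.21 to 0.26. The largest adjusted p, for CHEK2, was 1.18e-04 (limma). The pairs without overlap ranged from 6 to 9, a number that can only stay or rise when a library is left out. Scaling set the depth of the fall. Scalings over the table were estimated from selected genes alone, with none of small difference among them, so their sizes are less certain. Their median of -1.16 became -1.40 with equal medians over the table, -1.76 with TMM factors, -1.74 with equal totals, -1.66 and -2.21 from the reads of 5 libraries in edgeR and DESeq2, because these scalings moved the median of the whole table by -0.24, -0.59, -0.57, -0.56 and -1.02. Relative to the table's median the 6 genes stood at -2.29, and between -2.31 and -2.24 under these 5 settings. With edgeR and the authors' scaling, chosen after seeing the data, the median was -1.17. The counts of higher and lower genes, 1655 and 1228, were 786 and 1229 with DESeq2, 1286 and 1130 with edgeR, and within 1.5 times of the first figures in all other fits. KMT5A stayed higher in every alternative, from 0.59 (DESeq2) to 1.62. Libraries with the same number did not vary together (correlations of -0.036, -0.031 and 0.0084). With 3 libraries per group this cannot show whether they were prepared in pairs. In limma with a replicate block the median stayed at -1.16. The adjusted p of CHEK2, the largest of the 6, was then 1.18e-06. Counting noise was largest for CHEK2, with 178 and 206 reads in shKMT5A replicates 1 and 2. Its coefficient of variation in the libraries labelled shNC, 13.8%, was above the 4.36% to 5.05% that counting gives.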
